A study of Mus musculus with 12 samples.

Results

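Cardiomyocytes (CM) were compared with the cardiopoietic cells (CP) that precede them in culture, using the 3 arrays whose titles contain CM and the 3 whose titles contain CP, 6 of the 12 arrays of a differentiation series in which the other 6 hold embryonic stem (ES) cells. Both cell types came from the murine CGR8 ES cell line, a line that grows without feeder cells, and both had received the same cocktail of growth factors (BMP, TGFβ, IL-13, IL3, IGF1, VEGF, EGF, FGF and IL6). The cardiopoietic cells were kept for 5 days in 3% fetal bovine serum with TNFα at 30 ng/ml, and the cardiomyocytes for 9 days in 20% serum. Each was then enriched on a Percoll density gradient, at a density of its own. Medium, serum, TNFα, time and the density taken thus changed together with the stage, and their parts cannot be told apart. The methods state that each stage was sampled independently 3 times. One line was used, so the replicates are cultures of a single genetic background.

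A cardiopoietic cell is a progenitor that has moved cardiac transcription factors into its nucleus and has not yet built contractile filaments. A cardiomyocyte beats. Its sarcomere is a repeat of myosin-bearing thick filaments and actin-bearing thin filaments anchored in Z disks, and each contraction starts when calcium leaves the sarcoplasmic reticulum and binds troponin on the thin filament. Maturing heart muscle also replaces general forms of many proteins by muscle forms, burns fatty acids in a growing mass of mitochondria, and divides less. The groups of genes below follow that order, from the filaments to calcium, membrane and metabolism, and then to the matrix, stem cell and proliferation genes that were lower.

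Signals are MAS 5.0 values of probe sets on the Affymetrix mouse genome array, which carries several short probes for each transcript. To be tested, a probe set had to exceed the median of the array on 3 or more of the 12 arrays, and each gene is represented by its brightest tested probe set. Differences are given as log2(signal + 16), cardiomyocytes minus cardiopoietic cells, with the standard error of the fit, so that 1 is a doubling. A gene was called if its difference exceeded 1.5-fold in that fit with a limma adjusted p (Benjamini-Hochberg) under 0.05 over all tested probe sets. Signals of different genes are never compared, because probes bind with different strength.

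Of 13167 tested genes, 1193 were called higher in cardiomyocytes and 1375 were called lower, which is 9.06% and 10.4% of all tested genes. Over single probe sets the shares were 8.7% of 26083 higher and 9.47% lower. These shares, 19.5% of genes in either direction, are the background against which each group of genes below is read. The 3 CM arrays lay wholly above or wholly below the 3 CP arrays in 50% of tested genes, and in 19.2% they did so and the gene was called. The rises reached further than the falls. Among genes called higher, 219 exceeded 4-fold (18.4%), and among genes called lower, 84 did (6.11%). Past 16-fold there were 49 genes higher in cardiomyocytes and 4 lower. The median difference was 1.03 over the genes called higher and -0.85 over the genes called lower, against -0.04 over all tested genes. Among the genes called higher, 189 lay below the array median on every CP array and above it on every CM array. In the other direction, 132 of the genes called lower lay below the median on every CM array and above it on every CP array. Signal above the median on the 3 arrays of a single stage is enough to pass the filter. Both counts thus depend partly on that selection. Most called genes, 840 of those higher and 1006 of those lower, were above the median on all 6 arrays and so changed in degree.

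**Figure D1:**
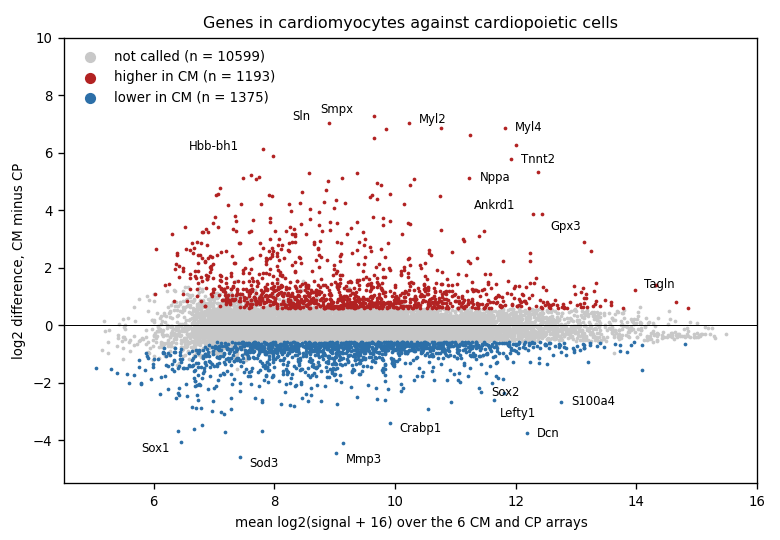
Each point is 1 of the 13167 tested genes, with the mean log2(signal + 16) over the 6 arrays on the horizontal axis and the log2 difference, CM minus CP, on the vertical axis. Colored points are called genes, 1193 higher and 1375 lower, and the upper side of the plot extends to over 7 (Smpx at 7.26) while the lower side ends at -4.60 (Sod3).

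The arrays of each stage resembled each other more than those of the other stage. The root mean square log2 distance over tested genes was 0.414 to 0.445 between CM arrays and 0.421 to 0.450 between CP arrays, against 0.756 to 0.801 between a CM and a CP array. The median signal was 127.7 to 144.1 on CM arrays and 128.9 to 136.3 on CP arrays. The 3′ to 5′ ratio of the Gapdh control probes, a sign of intact RNA, was 0.746 to 0.805 on CM arrays and 0.799 to 0.825 on CP arrays. Marker genes of each cell type were listed for this comparison, and those of cardiomyocytes fitted the CM label. All 7 cardiomyocyte markers were called higher, and their summed signal was 95278 to 110399 on CM arrays, against 1710 to 1903 on CP arrays. All 4 markers of pluripotent cells were called lower, yet they still summed to 13295 to 19494 on CM arrays, against 48897 to 55263 on CP arrays. Of 6 markers of cardiopoietic progenitors, none was called lower and 4 were called higher, and their summed signal was 7630 to 7954 on CM arrays, against 2989 to 3351 on CP arrays. RNA came from gradient fractions that were enriched and not pure, so fewer cells of a type and less RNA per cell cannot be told apart in any value below.

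The thick filament had the highest median of all groups. Of 12 tested members, 11 rose, none fell, and the median difference was 5.30. Myl4, the atrial essential light chain, had signals of 38665, 35346 and 43426 on the CM arrays, against 283, 294 and 384 on the CP arrays. The CM arrays lay far above the CP arrays, with no overlap, and the difference was 6.87 ± 0.15 (adjusted p = 3.28e-13). Myl7, the atrial regulatory light chain, read 35236, 33108 and 40352 in cardiomyocytes and 469, 524 and 372 in cardiopoietic cells, a difference of 6.27 ± 0.22 (adjusted p = 6.25e-11). Titin (Ttn), the giant spring that spans the sarcomere from Z disk to midline, rose by 5.30 ± 0.34, and 4 of its 5 tested probe sets were called. Myosin-binding protein C (Mybpc3), which tunes the myosin heads, had 7874, 8699.8 and 7791 in cardiomyocytes and 322, 403 and 325 in cardiopoietic cells, and it rose by 4.48 ± 0.11 (adjusted p = 1.77e-12).

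Both cardiac myosin heavy chains rose. Myh7, the slow chain typical of the fetal mouse ventricle, read 930.2, 879.7 and 864 on the CM arrays and 57.5, 78.7 and 104 on the CP arrays, a difference of 3.27 ± 0.31 (adjusted p = 1.52e-06). Myh6, the fast chain of the atria and of the adult mouse heart, rose by 6.84 ± 0.17. The ventricular essential light chain Myl3 rose by 4.55 ± 0.17. The M-line protein myomesin (Myom1), which ties thick filaments together, had 1853, 2155 and 1721 in cardiomyocytes and 24.5, 18.8 and 9.2 in cardiopoietic cells. Its CP signals were dim, and its fold moves with the constant added before taking logs. The difference of 5.87 became 6.78 with 1 added and 4.60 with 64 added.

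Of 16 tested thin filament genes, 15 rose and none fell, with a median difference of 4.06. The 3 subunits of cardiac troponin, the calcium switch of the filament, moved together. Troponin C (Tnnc1) had 23353, 23008 and 25435 in cardiomyocytes and 249.8, 238 and 200.2 in cardiopoietic cells and rose by 6.61 ± 0.18 (adjusted p = 3.59e-12). Troponin T (Tnnt2) had 30709.8, 24471 and 30739 in cardiomyocytes and 414, 602 and 527 in cardiopoietic cells and rose by 5.76 ± 0.18 (adjusted p = 2.79e-11). In neither gene did any array of one stage reach the range of the other. Of the inhibitory subunit, the adult cardiac form Tnni3 rose by 6.83 ± 0.29 and the slow skeletal form Tnni1, which the fetal heart uses, by 6.51 ± 0.33. Cardiac actin (Actc1) had 33816, 29567 and 37698 in cardiomyocytes and 746, 942 and 788 in cardiopoietic cells, a rise of 5.32 ± 0.17. Skeletal actin (Acta1) rose by 2.66 ± 0.23. The tropomyosins, which cover the myosin sites on actin and also serve in other cells, rose as well. Tpm1 rose by 1.40 ± 0.11 and Tpm2 by 0.76 ± 0.08, and all 4 probe sets of each were called.

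Of 27 tested genes of the Z disk and of sarcomere upkeep, 22 rose, 1 fell and the median difference was 2.78. The fall was not called without the first CP or the third CM array. Smpx, a small striated muscle protein, had the largest rise of all genes called with arrays that did not overlap. It read 10035, 10406 and 9288 in cardiomyocytes and 45.6, 54.1 and 46.7 in cardiopoietic cells, a difference of 7.26 ± 0.31 (adjusted p = 5.20e-10). The Z disk actin linker Actn2 had 4767, 4992 and 4201 in cardiomyocytes and 110.0, 96.8 and 222 in cardiopoietic cells and rose by 4.95 ± 0.25. Ankrd1, a stretch-responsive partner of titin, was already well above the array median in cardiopoietic cells. Its signals were 20918, 17261 and 19456 in cardiomyocytes and 1228, 1321 and 1357 in cardiopoietic cells, a rise of 3.86 ± 0.20. The intermediate filament desmin (Des) rose by 3.31 ± 0.37, the muscle LIM protein Csrp3 by 4.53 ± 0.37, and telethonin (Tcap), which caps titin, by 2.36 ± 0.20. The small heat shock protein Hspb7, a chaperone of the sarcomere, rose by 3.08 ± 0.17.

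**Figure D2:**
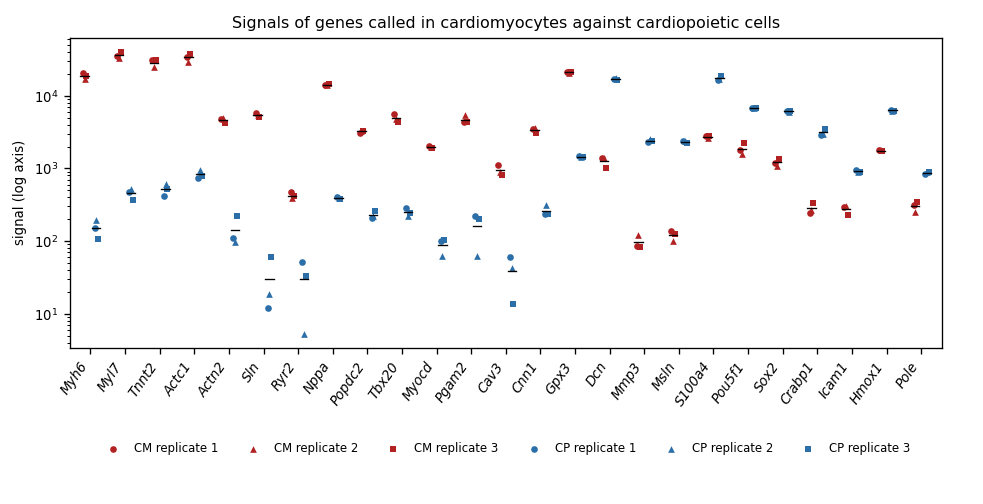
Signals (log axis) of 25 called genes on each array, one column per gene, with the 3 CM arrays drawn left of the 3 CP arrays. The sarcomere, calcium and metabolic genes on the left are higher on every CM array, and the matrix, stem cell and replication genes on the right are lower on every CM array.

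The promoters of some of these genes show which short motifs lie where transcription starts. A RefSeq promoter (GRCm38.p6, 250 bases before the start of transcription to 50 after it) was matched by symbol for 165 of the 219 genes called higher by over 4-fold, giving 219 promoters, and for 10586 of the 13167 tested genes, giving 13549. Searched on both strands were the CArG box, to which serum response factor binds, the MEF2 box, the TATA box (TATAAA), the GATA site AGATAA, the TEAD site CATTCC and the NKX2-5 site TCAAGTG. A CArG box stood in 6.39% of the promoters of genes called higher by over 4-fold, against 1.3% of the promoters of all tested genes. A MEF2 box stood in 6.39% of the promoters of those genes and in 1.77% of all tested promoters. For the TEAD site the shares were 22.4% and 12.4%, for the GATA site 11.4% and 6.5%, for the TATA box 16.9% and 7.96%, and for the NKX2-5 site 1.37% and 2.14%. Base composition differed as well, with a median of 7 CG pairs per promoter in the genes called higher by over 4-fold and 19 in all tested genes. These shares are descriptions without a test, and the CArG and MEF2 motifs share A/T-rich letters with the TATA box.

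Of the 15 largest rises, 13 have a promoter in the table, and 4 of these hold a CArG or a MEF2 box. They are shown for where the motif lies, with the letters of the motifs listed below in capitals. Not every match of the searched motifs is marked. The TEAD site CATTCC stands in lower case in Myl7 and Ttn. Positions count from the start of transcription. In Actc1 (chr2:114052826-114053125, minus strand) a CArG box lies at -47 to -38 and TATAAA at 34 to 39. In Myl7 (chr11:5898733-5899032, minus strand) a CArG box lies at -61 to -52. In Myom1 (chr17:71019307-71019606, plus strand) a CArG box lies at -99 to -90 and a GATA site at -115 to -110. In Ttn (chr2:76982498-76982797, minus strand) a MEF2 box lies at -166 to -157. A match says only that these letters are present.
Actc1: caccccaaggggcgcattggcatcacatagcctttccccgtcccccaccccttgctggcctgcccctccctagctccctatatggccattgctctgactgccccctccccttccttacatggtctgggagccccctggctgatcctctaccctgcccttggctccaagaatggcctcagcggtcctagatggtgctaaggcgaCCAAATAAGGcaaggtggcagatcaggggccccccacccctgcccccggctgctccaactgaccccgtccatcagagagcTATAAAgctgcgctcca
Myl7: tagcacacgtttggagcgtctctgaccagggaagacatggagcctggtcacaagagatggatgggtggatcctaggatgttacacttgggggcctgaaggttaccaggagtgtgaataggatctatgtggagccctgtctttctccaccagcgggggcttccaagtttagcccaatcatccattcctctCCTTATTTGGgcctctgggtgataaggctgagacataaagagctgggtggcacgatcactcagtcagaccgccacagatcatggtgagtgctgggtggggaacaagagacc
Myom1: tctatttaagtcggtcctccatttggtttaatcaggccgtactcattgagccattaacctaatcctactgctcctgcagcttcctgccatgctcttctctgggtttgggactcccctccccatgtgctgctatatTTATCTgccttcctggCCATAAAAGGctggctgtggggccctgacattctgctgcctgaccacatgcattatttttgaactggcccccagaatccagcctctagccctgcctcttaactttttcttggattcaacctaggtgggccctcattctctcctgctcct
Ttn: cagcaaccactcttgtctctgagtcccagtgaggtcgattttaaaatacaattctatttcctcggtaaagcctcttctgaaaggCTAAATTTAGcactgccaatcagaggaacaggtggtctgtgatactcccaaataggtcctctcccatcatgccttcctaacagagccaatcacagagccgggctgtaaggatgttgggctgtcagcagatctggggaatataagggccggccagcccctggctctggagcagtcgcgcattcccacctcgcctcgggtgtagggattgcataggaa

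Calcium handling rose with the filaments. Of 22 tested genes, 15 rose, none fell and the median difference was 1.91. Sarcolipin (Sln), an atrial brake on the calcium pump, had 5760.3, 5442 and 5173 in cardiomyocytes and 12, 18.9 and 60.7 in cardiopoietic cells, a rise of 7.02 ± 0.35 (adjusted p = 2.35e-09). Phospholamban (Pln), the other brake on that pump, had 2271, 2750.0 and 1911 in cardiomyocytes and 176, 133 and 229 in cardiopoietic cells and rose by 3.59 ± 0.22. Neither gene had an array of one stage within the range of the other. The release channel Ryr2 rose by 3.42 ± 0.44, the store protein calsequestrin (Casq2) by 3.17 ± 0.22, their anchor triadin (Trdn) by 5.13 ± 0.51, and the sodium-calcium exchanger Slc8a1 by 3.25 ± 0.30. Junctophilin (Jph2), which holds the reticulum to the cell membrane, rose by 3.15 ± 0.39. The pore of the L-type channel, Cacna1c, had 408, 438 and 357 in cardiomyocytes and 157, 125 and 195 in cardiopoietic cells, a rise of 1.27 ± 0.28 (adjusted p = 0.00289).

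The calcium pump itself, Atp2a2 (SERCA2), was unchanged or strongly higher depending on the probe set, and no probe set was called lower. The brightest probe set, which stands for the gene in all counts here, read 7905, 8049 and 7299 in cardiomyocytes and 8345, 8293 and 8008 in cardiopoietic cells, and at -0.085 ± 0.07 it was not called. A second probe set read 25646, 23964 and 26443 in cardiomyocytes and 1545, 1560 and 1546 in cardiopoietic cells. Its difference of 4.02 ± 0.08 carried the smallest adjusted p of all tested probe sets (2.85e-13). Another one gave 3.94 ± 0.18 (adjusted p = 8.99e-10), and the remaining 2 gave 0.48 ± 0.10 and 0.37 ± 0.27, neither called. Smyd1, a muscle methyltransferase needed for sarcomere assembly, was split in the same way. Its brightest probe set gave 0.22 ± 0.16, another gave -0.49 ± 0.29, and 3 further ones were called at 5.45 ± 0.45, 3.42 ± 0.37 and 3.35 ± 0.46. Gata5, a cardiac and endoderm GATA factor, gave 0.61 ± 0.35 by its brightest probe set and 2.82 ± 0.50 by another, which was called (adjusted p = 4.97e-04). Which transcripts of these genes each probe set binds was not tested.

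Such splits touched a definite share of the genes. Of 10599 genes not called by their brightest probe set, 623 had another tested probe set that was called, 299 of them with one called higher and 332 with one called lower. In 30 of these the other probe set exceeded 4-fold, 23 in the higher and 7 in the lower direction. The 10599 genes include those with only 1 tested probe set, which cannot show a split. Among 5910 genes with more than 1 tested probe set, 11 had probe sets called in opposite directions. Among the 1170 called genes with more than 1 tested probe set, every probe set was called the same way in 498.

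Of 21 tested ion channel and junction genes, 11 rose, none fell (1 without the third CM array) and the median difference was 0.69. Popdc2, a cAMP-binding membrane protein of the heart's pacemaking system, had 3108, 3308 and 3305 in cardiomyocytes and 207, 220.3 and 257 in cardiopoietic cells. The stages did not overlap and the difference was 3.74 ± 0.18 (adjusted p = 2.21e-09). The potassium channels Kcnj5, an acetylcholine-gated subunit of atrium and node, and Kcnh2, which carries the rapid repolarizing current, rose by 2.85 ± 0.33 and 2.63 ± 0.16. The T-type calcium channels Cacna1g and Cacna1h, known from fetal heart and pacemaker cells, rose by 2.41 ± 0.58 and 1.56 ± 0.28. Cacna1g rested on uneven CP arrays, with 386, 364 and 301 in cardiomyocytes and 27.2, 178 and 22.2 in cardiopoietic cells. The desmosome genes Dsp and Pkp2 rose by 2.15 ± 0.15 and 1.39 ± 0.09. The gap junction gene Gja1, which joins cardiomyocytes electrically, was at 0.51 ± 0.09 and was not called, and neither were the pacemaker channel Hcn2 at 0.47 ± 0.26 and the potassium channel Kcnj3 at 0.46 ± 0.14.

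Among 15 tested genes of natriuretic peptides and of vasoactive hormones and their receptors, 8 rose and 2 fell. Nppa, the atrial natriuretic peptide, was the largest. It read 14238, 13847 and 14596 in cardiomyocytes and 400.5, 388 and 385 in cardiopoietic cells, a rise of 5.13 ± 0.23 (adjusted p = 9.71e-10). Nppb, the B-type peptide, rose by 2.84 ± 0.20, and Corin, the protease that cuts the atrial prohormone, by 3.36 ± 0.29. The receptor that both peptides act on moved the other way. Npr1 had 50.8, 53.1 and 31.8 in cardiomyocytes and 110.1, 117 and 96.7 in cardiopoietic cells, and fell by 1.03 ± 0.29 (adjusted p = 0.0129). Every one of these signals was dim, below the array median, and the gene passed the filter through the ES arrays alone. Ramp3, a partner of the adrenomedullin receptor, fell by 0.89 ± 0.13, while the adrenergic receptor Adra1b rose by 2.31 ± 0.33.

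Of 41 tested cardiac transcription factors, 19 rose and none fell (1 without the third CM array), with a median difference of 0.62. Myocardin (Myocd), the coactivator of serum response factor, had 2032, 1969 and 1940.2 in cardiomyocytes and 101, 63 and 105 in cardiopoietic cells and rose by 4.27 ± 0.28 (adjusted p = 4.08e-08). Tbx20, a chamber factor, had 5576, 4728 and 4396 in cardiomyocytes and 285, 219 and 242 in cardiopoietic cells and rose by 4.22 ± 0.21 (adjusted p = 2.34e-09). The CM arrays lay far above the CP arrays for both. The early cardiac factors Nkx2-5, Mef2c and Tbx5 rose by 3.71 ± 0.25, 3.35 ± 0.41 and 3.28 ± 0.50. On the CP arrays, Nkx2-5 read 124, 91.6 and 65.3 and Mef2c 74, 93.4 and 85.6, in both genes at or below the array median. The GATA factors Gata4 and Gata6 lay above the array median already in cardiopoietic cells. Gata4 had 1711, 1657 and 1557 in cardiomyocytes and 362, 453 and 363 in cardiopoietic cells, a difference of 2.03 ± 0.20, and Gata6 had 2762, 2749 and 2644 in cardiomyocytes and 1259, 1069 and 1287 in cardiopoietic cells, a difference of 1.17 ± 0.15. Hand2 was at -0.081 ± 0.25 and was not called, while its relative Hand1 rose by 2.04 ± 0.22. Serum response factor itself (Srf) rose by 1.19 ± 0.11 by its brightest probe set, and its other tested probe set was not called. Tbx18, a factor of the sinus node and epicardium, rose by 2.64 ± 0.39, and Hopx, which acts with cardiac factors in myocyte commitment, by 2.51 ± 0.17.

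Pairs of related proteins were set side by side, with the form more typical of striated muscle or mature heart first and a general, smooth muscle or embryonic form second. One pair departs from this, since Myl7 is the atrial and Myl2 the ventricular regulatory light chain. Of 18 tested pairs, the form named first below was called higher in 14, the second form was called higher in 5 and lower in 1, and the first form had the larger difference in 16. Without the light chains, these counts were 13, 4, 1 and 16 of 17 pairs. Phosphoglycerate mutase was one such pair. The muscle form Pgam2 had 4315, 5353 and 4414 in cardiomyocytes and 223, 63.1 and 201 in cardiopoietic cells, a rise of 4.87 ± 0.39, against -0.072 ± 0.12 for the general form Pgam1. For cytochrome oxidase subunit VIa, the striated muscle form Cox6a2 had 3019, 3026 and 2636 in cardiomyocytes and 239.9, 206 and 159 in cardiopoietic cells, a rise of 3.76 ± 0.19, against -0.026 ± 0.07 for Cox6a1. The same held for subunit VIII, with 3.23 ± 0.50 for Cox8b and 0.47 ± 0.07 for Cox8a, and for subunit VIIa, with 1.35 ± 0.14 for Cox7a1 and 0.20 ± 0.06 for Cox7a2.

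The glucose transporters followed the pattern, since the insulin-responsive Slc2a4 rose by 1.23 ± 0.22 and the general Slc2a1 stood at -0.0084 ± 0.09. Phosphofructokinase did so as well, with 0.92 ± 0.09 for the muscle form Pfkm and 0.18 ± 0.09 for Pfkp. The laminin alpha chains crossed. Lama2, the chain of muscle basement membrane, had 258, 384 and 332 in cardiomyocytes and 13.4, 15 and 192 in cardiopoietic cells and rose by 2.55 ± 0.60. Lama1, the embryonic chain, had 114, 142 and 184 in cardiomyocytes and 822, 829 and 853 in cardiopoietic cells and fell by 2.41 ± 0.21 (adjusted p = 6.39e-07). For Lama2, 1 CP array stood well above the others without reaching the CM arrays. Creatine kinase and lactate dehydrogenase were not called by their brightest probe sets. Ckm was at 0.12 ± 0.20 and Ckb at -0.015 ± 0.12, Ldhb at 0.26 ± 0.10 and Ldha at 0.11 ± 0.09, and none of the 4 was called. The other tested probe set of Ckm, with 532, 378 and 446 in cardiomyocytes and 369, 61.9 and 123.4 in cardiopoietic cells, was called at 1.52 ± 0.49 (adjusted p = 0.0262), and the mean of both probe sets was called at 0.82. One pair in which the second form had the larger difference was integrin alpha, with the laminin receptor Itga7 at -0.45 ± 0.18, not called, and the fibronectin receptor Itga5 higher by 1.13 ± 0.12. The other was Myl7, at 6.27 ± 0.22, against 7.04 ± 0.35 for Myl2.

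**Figure D3:**
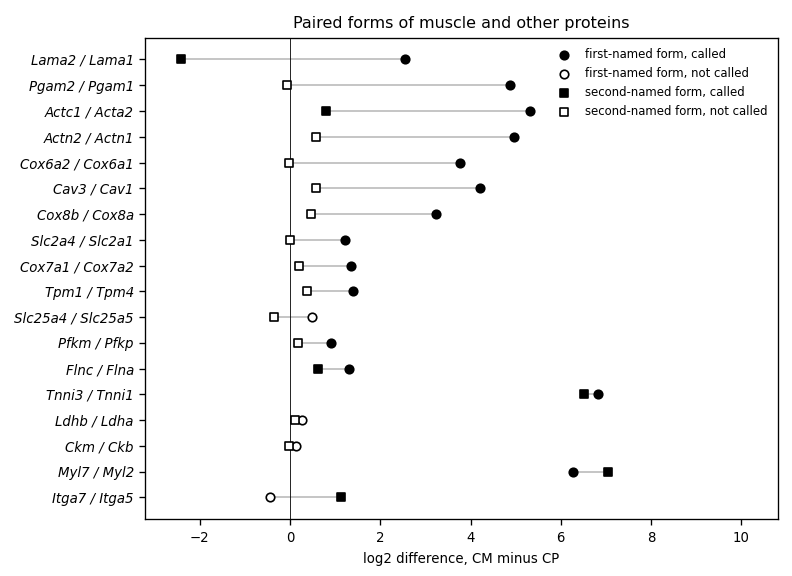
Log2 difference, CM minus CP, of both forms of 18 protein pairs, with a circle for the first-named and a square for the second-named form, filled where called. The first-named form lies to the right in 16 of the 18 pairs, the exceptions being Myl7/Myl2 and Itga7/Itga5.

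Among genes of energy supply, rises outnumbered falls, and most genes were not called. Of 71 tested genes of oxidative phosphorylation, 29 rose and 1 fell, and the median difference was 0.46. The fall was not called without the first CP or the third CM array. Outside the muscle forms above, the called rises were less than a doubling. Ndufa3, a subunit of complex I, had 8017, 9602 and 8327 in cardiomyocytes and 5045, 4453 and 4693 in cardiopoietic cells, a rise of 0.87 ± 0.08. Of 28 tested genes of the TCA cycle, 9 rose and 1 fell, with a median of 0.51. Mdh1, the cytosolic malate dehydrogenase of the shuttle that feeds mitochondria, rose by 1.29 ± 0.08, and Pdha1, the entry of pyruvate into the cycle, by 1.15 ± 0.06. Pyruvate carboxylase (Pcx), which refills the cycle, fell by 0.82 ± 0.09. Ribosomal proteins of the mitochondria changed little. None of 71 tested was called by limma with the 1.5-fold threshold, against 19.5% of all tested genes. An unadjusted limma p under 0.05 was reached by 27, a count without a share over all genes here. Without the threshold 6 were higher and 14 lower, against 1953 and 2881 of all 13167 tested genes. The median of the group was -0.066, and 1 was called lower when the third CP or the third CM array was left out.

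Of 41 tested genes of fatty acid use, 14 rose and 3 fell. Lipoprotein lipase (Lpl), which frees fatty acids from circulating fat, had 5164, 5839 and 5038 in cardiomyocytes and 1958, 1934 and 2070.5 in cardiopoietic cells and rose by 1.42 ± 0.17 (adjusted p = 1.76e-05). Acadl, an early enzyme of fatty acid oxidation, had 5253, 5272 and 4615 in cardiomyocytes and 1757, 1805 and 1717 in cardiopoietic cells and rose by 1.51 ± 0.09. The mitochondrial coactivators Ppargc1a and Ppargc1b rose by 1.35 ± 0.31 and 1.92 ± 0.25. One of the 3 falls, Esrrb, is better known as a stem cell factor. Glycolysis showed 5 rises and 1 fall (not called without the first CM array) among 23 tested genes, and the largest rises were muscle forms, Pgam2 and the muscle enolase Eno3. Eno3 had 5964, 6226 and 6417 in cardiomyocytes and 780.5, 864 and 785 in cardiopoietic cells, a rise of 2.91 ± 0.08. Myoglobin (Mb), the oxygen store of muscle, rose by 5.13 ± 0.42, and the muscle glycogen phosphorylase Pygm by 5.16 ± 0.40. On CP arrays Pygm read 15.4, 5.6 and 52.2, below the array median, and its difference was 6.15 with 1 added and 3.95 with 64 added.

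Contractile genes of smooth muscle rose with those of the heart. Of 15 tested, 10 rose, none fell and the median was 1.07. Calponin (Cnn1) had 3498, 3582 and 3104 in cardiomyocytes and 236, 316 and 234 in cardiopoietic cells and rose by 3.63 ± 0.18 (adjusted p = 2.34e-09). Myl9, the smooth muscle regulatory light chain, had 25306, 22356 and 25566 in cardiomyocytes and 3723, 2935 and 3227 in cardiopoietic cells and rose by 2.89 ± 0.12. Smooth muscle myosin (Myh11) was dim, with 284, 192 and 202 in cardiomyocytes and 4.1, 28.3 and 52.3 in cardiopoietic cells, and rose by 2.60 ± 0.54. Smooth muscle actin (Acta2) and transgelin (Tagln), which early cardiomyocytes also make, rose by 0.80 ± 0.15 and 1.23 ± 0.07. For Acta2 the mean over its probe sets was 1.67, and probe sets without the suffixes that mark shared sequence gave 2.54. The sum of the 4 smooth muscle markers was 58445 to 67726 on CM arrays and 28633 to 32904 on CP arrays. Whether these genes were read in cardiomyocytes or in other cells of the culture was not tested.

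The contact of the cell with its surroundings changed in composition. Of 26 tested genes of caveolae and focal adhesions, 13 rose and none fell. Cav3, the caveolin of muscle, had 1107, 902 and 814 in cardiomyocytes and 60.8, 43.2 and 13.6 in cardiopoietic cells and rose by 4.21 ± 0.40, while the general Cav1, at 0.57 ± 0.11, was not called. Csrp1, a LIM protein of actin bundles, rose by 1.64 ± 0.10, and the integrin partners Fermt2 (kindlin) and Ilk by 1.08 ± 0.08 and 0.96 ± 0.10. Melusin (Itgb1bp2), a muscle protein that binds the integrin beta chain, had 1829, 1959.8 and 1421 in cardiomyocytes and 36.6, 119 and 33.6 in cardiopoietic cells and rose by 4.62 ± 0.44. Of 14 tested genes on the integrin list, which counts melusin as well, 7 rose and 2 fell. Itgb4, the hemidesmosome chain of epithelia, fell by 2.41 ± 0.41. N-cadherin (Cdh2), the adhesion molecule of the intercalated disk, rose by 1.03 ± 0.08, and Cdh13, a cadherin without a transmembrane part, by 1.98 ± 0.20.

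Small leucine-rich proteoglycans, which decorate and space collagen fibrils, were lower as a group. Of 8 tested, 7 fell and none rose, with a median difference of -1.66. Decorin (Dcn) had 1392, 1389 and 1006 in cardiomyocytes and 16985, 17672 and 16645 in cardiopoietic cells. The CM arrays lay far below the CP arrays, and Dcn fell by 3.76 ± 0.30 (adjusted p = 3.26e-07). Lumican (Lum) had 814, 655 and 816 in cardiomyocytes and 4754, 5027 and 4953 in cardiopoietic cells and fell by 2.67 ± 0.30, and Prelp, which anchors basement membranes, fell by 2.65 ± 0.25. Podn was the member not called, at 0.51 ± 0.14.

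The collagens around them moved in both directions. Of 18 tested fibrillar and associated collagens, 2 rose and 6 fell. Of the chains of collagen I, Col1a1 was not called at -0.35 ± 0.16. Col1a2 read 13807, 14098 and 13080.5 in cardiomyocytes and 22056, 23048 and 21829.5 in cardiopoietic cells and fell by 0.71 ± 0.08, but after quantile normalization it was at -0.53 and not called. Col8a1, a short-chain collagen of vessels and valves, had 2900.1, 2888 and 2131 in cardiomyocytes and 604, 505 and 453 in cardiopoietic cells and rose by 2.30 ± 0.39. Col11a1, a cartilage collagen, rose by 1.98 ± 0.22. Of 30 tested matricellular and elastic fibre genes, 6 rose and 5 fell, with a median of 0.046. Spon1, a matrix protein, rose by 4.04 ± 0.36 by its brightest probe set, while its other tested probe set was not called. Connective tissue growth factor (Ccn2) rose by 1.46 ± 0.10, and elastin (Eln) by 1.50 ± 0.20. The microfibril proteins Mfap4 and Mfap5 were called lower at -1.68 ± 0.33 and -1.48 ± 0.17.

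Of 26 tested metalloproteinases and inhibitors, 4 rose and 4 fell. The stromelysins were the largest falls. Mmp10 had 20.1, 31.5 and 124 in cardiomyocytes and 878, 719.9 and 763 in cardiopoietic cells and fell by 3.68 ± 0.43 (adjusted p = 1.32e-05). Mmp3, which lies near it on chromosome 9, fell by 4.44 ± 0.27. The third CM array was the highest for Mmp10 and still below every CP array. The inhibitor Timp1 fell by 0.68 ± 0.08. Of the 15 largest falls, 11 have a promoter in the table, and 3 of these (Frat2, Mmp10 and Mmp3) hold a TATA box, as 20.8% of the promoters of genes called lower by over 4-fold did. None of the 72 promoters of that set held a CArG box (0%) and 2.78% held a MEF2 box. Over the promoters of all tested genes the shares were 7.96% for the TATA box, 1.3% for the CArG box and 1.77% for the MEF2 box. With so few promoters, the CArG and MEF2 shares cannot be told from those of all tested genes. The stromelysin promoters are shown with the motif letters in capitals. In Mmp10 (chr9:7502092-7502391, plus strand) TATAAA lies at -29 to -24 and a MEF2 box at -81 to -72. In Mmp3 (chr9:7445572-7445871, plus strand) TATAAA lies at -7 to -2.
Mmp10: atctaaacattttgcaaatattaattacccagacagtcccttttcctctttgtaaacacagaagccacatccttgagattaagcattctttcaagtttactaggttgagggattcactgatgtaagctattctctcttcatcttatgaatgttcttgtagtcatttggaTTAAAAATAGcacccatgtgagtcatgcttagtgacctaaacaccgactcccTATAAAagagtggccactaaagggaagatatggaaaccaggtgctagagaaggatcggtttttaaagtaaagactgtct
Mmp3: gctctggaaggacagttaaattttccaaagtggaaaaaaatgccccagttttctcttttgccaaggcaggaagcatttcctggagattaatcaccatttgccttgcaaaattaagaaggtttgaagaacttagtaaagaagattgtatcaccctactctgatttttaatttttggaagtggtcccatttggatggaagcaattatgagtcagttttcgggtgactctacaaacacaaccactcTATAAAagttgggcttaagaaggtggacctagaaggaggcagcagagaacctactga

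Genes of the epicardium and of the mesothelium, the lining of body cavities and the source of the epicardium, did not move as one. Of 17 tested genes, 4 rose and 4 fell. The 4 defining mesothelium markers (Msln, Wt1, Upk3b and Upk1b) were lower in sum, and 2 were called lower and none higher. They summed to 3074 to 4066 on CM arrays, against 10387 to 10915 on CP arrays. Msln fell by 4.10 ± 0.30, the simple epithelial keratin Krt7 by 2.11 ± 0.26, and Bnc1, a zinc finger protein of mesothelium and keratinocytes, by 1.98 ± 0.38. Bnc1 read 267, 231 and 286 in cardiomyocytes and 1091, 967 and 1179 in cardiopoietic cells. The epicardial factor Wt1 was at -0.48 ± 0.25 and was not called. In the other direction, clusterin (Clu) had 24092, 22760.2 and 24785 in cardiomyocytes and 3677, 4845 and 3489 in cardiopoietic cells and rose by 2.59 ± 0.16, and Krt8 and Krt18, keratins that early cardiomyocytes share with simple epithelia, rose by 0.99 ± 0.23 and 1.09 ± 0.18.

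Of 24 tested fibroblast and mesenchymal genes, 2 rose and 6 fell. S100a4, a calcium-binding protein of motile mesenchyme, had 2811, 2633 and 2778 in cardiomyocytes and 16642, 17102 and 18484 in cardiopoietic cells and fell by 2.66 ± 0.37. Thy1, a surface glycoprotein of fibroblasts, had 688, 546 and 487 in cardiomyocytes and 2127, 1780.3 and 2042 in cardiopoietic cells and fell by 1.77 ± 0.16. All CM arrays lay below all CP arrays for both genes. The mesenchymal intermediate filament vimentin (Vim) was at 0.078 ± 0.12 and the receptor Pdgfra at -0.46 ± 0.24, and neither was called. The 5 fibroblast markers summed to 24507 to 26867 on CM arrays and to 47632 to 51786 on CP arrays, and 2 of them, Dcn and Thy1, were called lower.

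**Figure D4:**
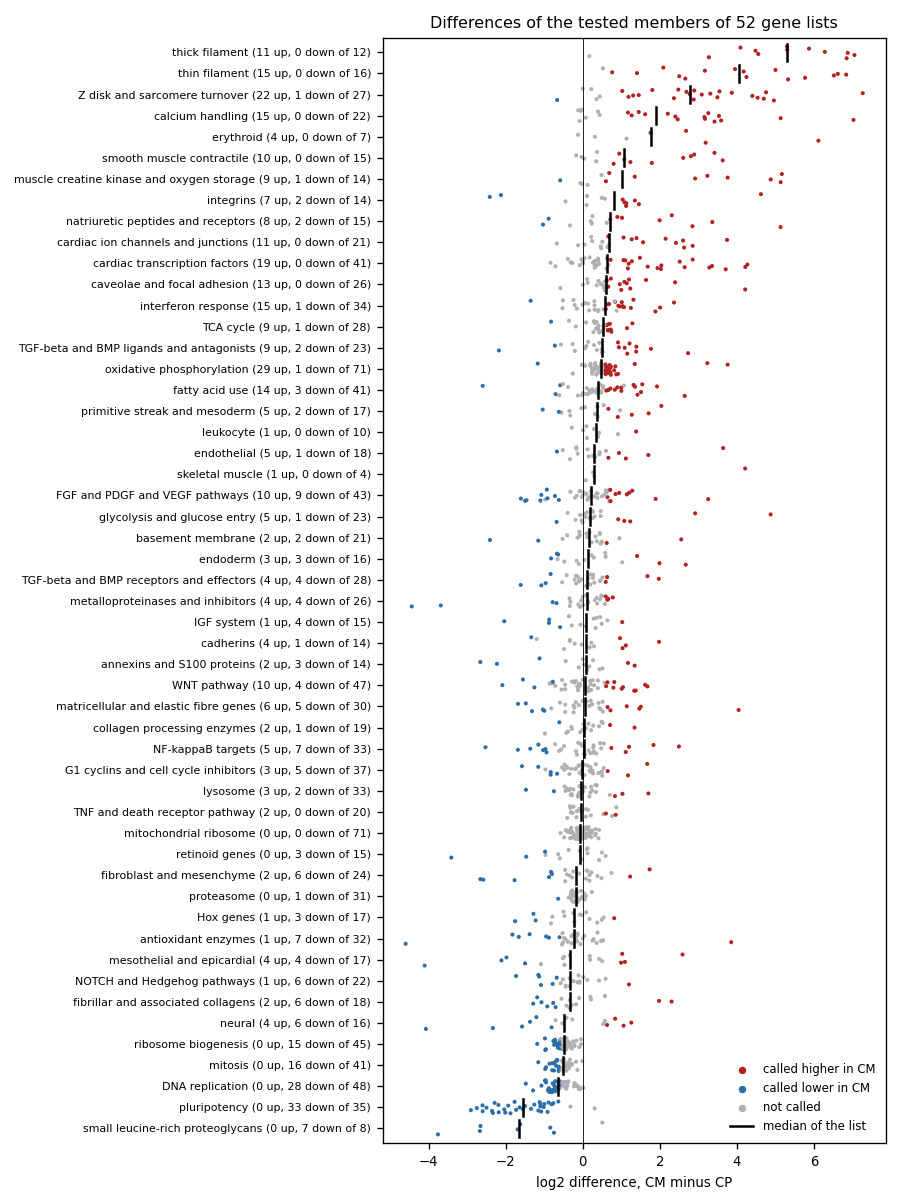
Log2 difference, CM minus CP, of every tested member of the gene lists, one row per list, with called members colored and a black bar at the median. Contractile lists lie furthest to the right, with medians of 5.30 for the thick and 4.06 for the thin filament, and the proteoglycan (-1.66) and pluripotency (-1.56) lists furthest to the left.

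Pluripotency genes were lower in cardiomyocytes almost without exception. Of 35 tested, 33 fell and none rose, and the median difference was -1.56. Pou5f1, the POU factor of the stem cell state, had 1771, 1557 and 2233 in cardiomyocytes and 6745, 6868 and 6711 in cardiopoietic cells and fell by 1.88 ± 0.10 (adjusted p = 4.38e-09). Its partner Sox2 had 1178, 1095 and 1357 in cardiomyocytes and 6251, 6019 and 6144 in cardiopoietic cells and fell by 2.33 ± 0.10 (adjusted p = 9.05e-10). Every CM array of either gene was well below every CP array, and all 3 CM arrays of each remained above the array median. Dppa2, a chromatin factor of the early embryo, fell by 2.90 ± 0.14, and Lefty1, an antagonist of nodal signaling, fell by 2.60 ± 0.10. Among factors of the naive state, the difference was -2.75 ± 0.21 for Tfcp2l1 and -2.18 ± 0.15 for Klf2. The reprogramming factor Klf4, which is also made in differentiated cells, fell by 0.92 ± 0.17. The 2 genes not called included Tbx3, at 0.31 ± 0.15, a factor that the heart's conduction system uses as well. The third CM array had the highest signal for Nanog (1384, 1334 and 1988 in cardiomyocytes, 6235, 6519 and 6049 in cardiopoietic cells) and Dppa5a (8779.5, 9048 and 13334 in cardiomyocytes, 28717, 33408 and 28114 in cardiopoietic cells), in both genes far below the CP arrays.

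Neural genes moved in both directions. Of 16 tested neural genes, 4 rose and 6 fell. Of the 4 defining neural markers (Sox1, Pax6, Tubb3 and Neurod1), 2 were called lower and none higher. They summed to 1360 to 1511 on CM arrays, against 1714 to 1757 on CP arrays. Sox1, the earliest factor of the neural plate, had 4, 5.9 and 6.5 in cardiomyocytes and 306, 375 and 356 in cardiopoietic cells and fell by 4.07 ± 0.37. Pax6, of the neural tube and eye, fell by 1.58 ± 0.23. In contrast Ncam1, an adhesion molecule that nerve and embryonic heart share, rose by 1.26 ± 0.22, and the intermediate filament nestin (Nes) by 1.06 ± 0.13. Of 15 tested retinoid genes, 3 fell and none rose. Crabp1, which holds retinoic acid in the cytoplasm, had 247, 266 and 331 in cardiomyocytes and 2890.0, 3013 and 3502 in cardiopoietic cells and fell by 3.41 ± 0.18 (adjusted p = 3.46e-09). Crabp2, which carries retinoic acid to its receptor, and the receptor Rarg fell by 1.47 ± 0.16 and 0.98 ± 0.16.

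DNA replication was lower as a group. Of 48 tested genes, 28 fell and none rose, with a median of -0.64. The falls were small and even. Pole, the catalytic chain of the leading strand polymerase, had 309.5, 254 and 345 in cardiomyocytes and 826, 889 and 885 in cardiopoietic cells and fell by 1.48 ± 0.11 (adjusted p = 1.26e-07), which was the largest. Cdc6, which loads the helicase at origins, had 491, 454 and 572 in cardiomyocytes and 1225, 1408 and 1146 in cardiopoietic cells and fell by 1.29 ± 0.10. No CM array of either gene reached a CP array. The helicase chains Mcm3 and Mcm7 fell by 0.87 ± 0.07 and 0.80 ± 0.07, with all 5 and all 4 of their probe sets called.

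Of 41 tested mitosis genes, 16 fell and none rose, with a median of -0.51. Ect2, which drives the cleavage furrow, had 894, 829 and 835 in cardiomyocytes and 2033, 1939 and 1790.4 in cardiopoietic cells and fell by 1.16 ± 0.08. The checkpoint kinase Bub1b fell by 0.79 ± 0.08, the topoisomerase Top2a by 0.79 ± 0.09 and the proliferation marker Mki67 by 0.68 ± 0.11. The kinase Aurkb was not called, at -0.43 ± 0.09. Of 37 tested genes on the list of G1 cyclins and cell cycle inhibitors, which counts Mybl2 as well, 3 rose and 5 fell. Mybl2, which switches on genes of dividing cells, had 800.1, 809.5 and 1092 in cardiomyocytes and 2474, 2920.0 and 2704 in cardiopoietic cells and fell by 1.58 ± 0.15. Cyclin D2 (Ccnd2), a cyclin of embryonic heart muscle, rose by 1.17 ± 0.13 with all 7 probe sets called, and cyclin E1 (Ccne1) fell by 0.84 ± 0.10. The inhibitor Cdkn1a, at 0.41 ± 0.07, was not called.

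Of 45 tested genes of ribosome biogenesis, 15 fell, none rose and 30 were not called, with a median of -0.48. Nop56, a core protein of the particles that methylate ribosomal RNA, had 2798, 3065 and 3060.2 in cardiomyocytes and 5751, 5709 and 6109 in cardiopoietic cells and fell by 0.97 ± 0.07 (adjusted p = 1.25e-07). Dyskerin (Dkc1), which modifies uridines of that RNA, fell by 0.96 ± 0.08. Mycn, a regulator of growth genes, fell by 1.16 ± 0.10 by its brightest probe set, but its other 2 probe sets were not called and lay on both sides of 0. Myc was not called, at 0.20 ± 0.11.

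The TNFα given to the cardiopoietic cells alone makes the NF-κB targets of interest, since TNFα acts through that factor. Of 33 tested, 5 rose and 7 fell, with a median of 0.03. The adhesion molecule Icam1, a classic target, had 292, 302 and 226 in cardiomyocytes and 939.5, 900.4 and 883 in cardiopoietic cells and fell by 1.68 ± 0.13 (adjusted p = 3.09e-07). The chemokines Cxcl5 and Ccl7 fell by 2.52 ± 0.51 and 1.36 ± 0.34. Other targets were higher in cardiomyocytes. The chemokine Cxcl12 had 12179, 12381 and 9891 in cardiomyocytes and 1876, 2020.1 and 2169 in cardiopoietic cells and rose by 2.49 ± 0.14 (adjusted p = 6.25e-09). The feedback inhibitor Tnfaip3 rose by 1.11 ± 0.21, and the inhibitor Nfkbia, at -0.15 ± 0.12, was not called. Of 20 tested genes of TNF receptors and the death pathway, 2 rose and none fell, and 1 rose when the second CP or the second CM array was left out.

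More genes of the interferon response rose than fell. Of 34 tested, 15 rose and 1 fell, with a median of 0.57. Usp18, which ends interferon signaling, had 783, 753 and 716 in cardiomyocytes and 192, 85.3 and 140.4 in cardiopoietic cells and rose by 2.36 ± 0.41. Gbp2, an interferon-induced GTPase, had 925, 732 and 877 in cardiomyocytes and 234, 195 and 168 in cardiopoietic cells and rose by 2.01 ± 0.22. The CM arrays lay above the CP arrays in both. Ifit1, which binds foreign RNA, rose by 1.88 ± 0.26 and the MHC class I light chain B2m by 0.66 ± 0.09. Ifitm1, a membrane protein also known from embryonic cells, was the fall, by 1.35 ± 0.18.

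Antioxidant enzymes held one rise among falls. Of 32 tested, 1 rose and 7 fell. Gpx3, a secreted glutathione peroxidase, had 21119.5, 20705 and 21488 in cardiomyocytes and 1469, 1425 and 1455 in cardiopoietic cells, a rise of 3.85 ± 0.10 (adjusted p = 1.77e-12). Heme oxygenase (Hmox1) had 1800.2, 1781 and 1712 in cardiomyocytes and 6444, 6219 and 6219 in cardiopoietic cells and fell by 1.83 ± 0.12 (adjusted p = 5.13e-08). The replicates of either gene varied little beside the gap between the stages. The detoxifying genes Nqo1, Gclm and Gsta4 stood at -1.38 ± 0.13, -0.88 ± 0.13 and -1.66 ± 0.09, all called lower. The secreted dismutase Sod3 fell by 4.60 ± 0.35.

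Of 23 tested ligands and antagonists of the TGF-β and BMP families, 9 rose and 2 fell, 1 without the third CP or the third CM array. Tgfb2, the isoform of the heart's cushions and valves, had 2099, 2006 and 1766 in cardiomyocytes and 236, 297 and 315 in cardiopoietic cells and rose by 2.73 ± 0.18 (adjusted p = 4.02e-08), with all 4 probe sets called. Bmp2 and Bmp7 rose by 1.77 ± 0.33 and 1.39 ± 0.15, and Tgfb1 by 1.15 ± 0.17. Of 28 tested receptors and effectors, 4 rose and 4 fell. The receptors Tgfbr2 and Tgfbr3 fell by 1.08 ± 0.16 and 1.61 ± 0.19. The inhibitor Smad6, which BMP signaling induces, had 1724, 1818 and 1708 in cardiomyocytes and 478, 422 and 407 in cardiopoietic cells and rose by 1.97 ± 0.16, and the decoy receptor Bambi rose by 1.68 ± 0.13.

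Of 43 tested genes of the FGF, PDGF, VEGF and EGF families, 10 rose and 9 fell. Fgf12 and Fgf13, intracellular relatives of the FGFs that bind sodium channels, rose by 3.25 ± 0.45 and 1.89 ± 0.15. Fgf13 read 1415, 1512 and 1159 in cardiomyocytes and 306, 349 and 415 in cardiopoietic cells. The secreted ligands Fgf4, Fgf5 and Fgf15, of the early embryo, were called lower at -1.50 ± 0.10, -1.10 ± 0.17 and -1.61 ± 0.22. The FGF-induced factor Etv5 fell by 1.08 ± 0.09. Of 47 tested WNT genes, 10 rose and 4 fell, and 7 fell when the third CM array was left out. The ligands Wnt5a and Wnt11, which act through the non-canonical branch, rose by 1.37 ± 0.23 and 1.01 ± 0.23. The antagonists Dkk2 and Notum were called lower at -2.09 ± 0.31 and -1.55 ± 0.16, while Dkk3 rose by 1.62 ± 0.17. Of 22 tested NOTCH and Hedgehog genes, 1 rose and 6 fell. The ligand Jag1 rose by 1.20 ± 0.10, and Gli2 and Gli1, the factors that Hedgehog signaling acts through, fell by 1.73 ± 0.14 and 1.13 ± 0.24. Gli2 read 226, 299.9 and 270.2 in cardiomyocytes and 909, 978 and 853 in cardiopoietic cells.

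Several other groups moved little or in both directions. Of 14 tested annexins and S100 proteins, which bind calcium, 2 rose and 3 fell, and Anxa8, an annexin of epithelia, had 389, 475 and 406 in cardiomyocytes and 2132, 1871 and 2117 in cardiopoietic cells and fell by 2.23 ± 0.30. Of 17 tested Hox genes, which set position along the body, 1 rose (none when any single CM or CP array was left out) and 3 fell. Hoxa10 had 134, 91.5 and 146 in cardiomyocytes and 469, 479.8 and 402 in cardiopoietic cells and fell by 1.76 ± 0.38. Of 15 tested genes of the IGF system, 4 fell, and 1 rose that was lost when any single CM or CP array was left out. The binding protein Igfbp6 had 163, 124 and 106 in cardiomyocytes and 579, 549.9 and 611 in cardiopoietic cells and fell by 2.04 ± 0.20. Genes of protein disposal stayed mostly uncalled. Of 33 tested lysosome genes 3 rose and 2 fell, and of 31 tested proteasome genes none rose and 1 fell (none without the second CP array).

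Some genes of blood and endoderm varied between the CM arrays themselves. Of 7 tested erythroid genes, 4 rose and none fell. The embryonic globin Hbb-bh1 read 424, 1812 and 7947 in cardiomyocytes, against 5.4, 22.6 and 7.5 in cardiopoietic cells. Its partner Hba-x read 129, 712 and 8023 in cardiomyocytes, against 81.8, 48.5 and 163 in cardiopoietic cells. The third CM array was by far the highest for both, and for Hba-x the lowest CM array lay within the range of the CP arrays. The differences were 6.11 ± 0.77 and 3.19 ± 0.94. A pair of blood and endothelial progenitor factors did not share that spread. Lmo2 had 649, 599 and 585 in cardiomyocytes and 26.9, 124 and 141 in cardiopoietic cells and rose by 2.68 ± 0.37, and Tal1 had 198, 249 and 268 in cardiomyocytes and 31.3, 86.2 and 70.2 in cardiopoietic cells and rose by 1.76 ± 0.34. Of 16 tested endoderm genes, 3 rose and 3 fell (1 without the first CM array), with a median of 0.13, and the summed signal of the list was 12057 to 15735 on CM arrays, against 11659 to 12406 on CP arrays. Among the rises were Ttr and Apom, which code for carrier proteins made in yolk sac and liver and were also highest on the third CM array. Ttr had 233, 538 and 1311 in cardiomyocytes and 74.8, 87.5 and 59.9 in cardiopoietic cells. Apom had 66.2, 156 and 387 in cardiomyocytes and 16.5, 43 and 31.6 in cardiopoietic cells. Both rose, by 2.67 ± 0.61 and 1.99 ± 0.58. Without the third CM array, the differences were 5.06 for Hbb-bh1 (adjusted p = 1.02e-04), 1.64 for Hba-x (0.0493) and 2.06 for Ttr (0.0255), and Apom, at 1.40 (0.0901), was no longer called. Hba-x also lost its call without the second CP array and Apom without the first. The contractile gene Myh6 did not follow the third CM array, reading 20414, 16867 and 18832 on the CM arrays.

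Of 18 tested endothelial genes, 5 rose and 1 fell. The rises were 3 without the third CP array and 2 without the third CM array, and the fall was lost without any of the CP arrays or without the first CM array. Emcn, a sialomucin of vessels, had 444, 438 and 432 in cardiomyocytes and 130.0, 129 and 113 in cardiopoietic cells and rose by 1.70 ± 0.31, while the general endothelial marker Pecam1, at -0.33 ± 0.21, was not called. Emcn was not the largest rise of the list, which reached 3.64. Of the 4 defining endothelial markers (Pecam1, Cdh5, Kdr and Tek), 2 were called higher and none lower. They summed to 1343 to 1731 on CM arrays, against 1033 to 1303 on CP arrays. Of 10 tested leukocyte genes, 1 rose (none without the second CM array, 2 without the first CP array) and none fell. Among 3 skeletal muscle markers, 1 was tested and it was not called.

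**Figure D5:**
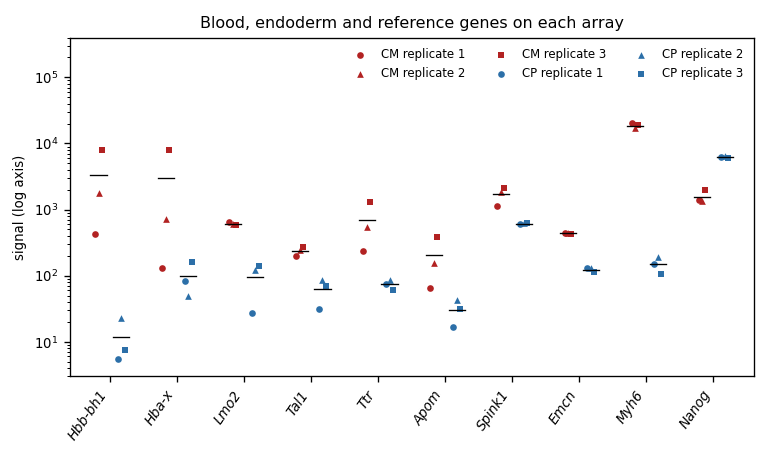
Signals (log axis) of blood genes (Hbb-bh1, Hba-x, Lmo2, Tal1), endoderm genes (Ttr, Apom, Spink1), Emcn, Myh6 and Nanog, with the 3 CM arrays left of the 3 CP arrays. Hbb-bh1, Hba-x, Ttr and Apom spread widely over the CM arrays, while Lmo2, Tal1, Emcn and Myh6 lie close together there.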

How the data were processed

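The authors hybridized RNA of each culture to Affymetrix mouse genome arrays and deposited MAS 5.0 signals, intensity values on a linear scale that they had scaled to a common trimmed mean on every array. MAS 5.0 is named in the submitters' processing notes, and its settings and detection calls were not used here. Control probe sets were dropped, and 26083 probe sets with signals above the array median on 3 or more of the 12 arrays were tested. Of 45037 probe sets, 34945 name 1 gene in the platform annotation, 932 name several and 9160 are unnamed here.

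Values were log2(signal + 16), fitted for 4 stages over the 12 arrays with limma 3.58.1 in R 4.3.3 (lmFit, then eBayes with an intensity trend). A call needed a Benjamini-Hochberg adjusted p under 0.05, over all tested probe sets, and a fitted difference over 1.5-fold. Samples were grouped by title. On simulated data 57 of 67 probe sets changed 2-fold, 61 of 67 changed 3-fold and 66 of 66 changed 4-fold were recovered, with 2 false calls among 25883. The changed ones were drawn from the brighter probe sets only, with independent noise, so recovery of dim genes was not tested. With 3 arrays per stage, their number limits the precision.

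Named genes were drawn from the 15 largest rises and falls whose arrays do not overlap, and from up to 4 leading members and the brightest of each list. Paired forms, markers, genes the study names, genes of largest spread and further members of the lists were drawn on as well. Not all of these are printed. Lbh, which the study names, and most genes of largest spread are left out. Members and lists were chosen with earlier results of these data known, and other named genes after their values were seen. Alternatives changed scaling, constant added, filter, arrays, variance model, threshold, blocks, representative probe set and left-out array.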

Additional observations from a re-analysis of the deposited data

How the results depend on the processing

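The number of genes called followed the fold threshold. Without one, 1953 genes were called higher and 2881 lower (3521 and 5014 probe sets), and at 2-fold 622 and 482 (1241 and 887 probe sets). Leaving out 1 array at a time gave 1084 to 1207 genes higher and 1281 to 1434 lower, and 1949 to 2318 probe sets higher and 2228 to 2578 lower. Deviations of same-numbered CM and CP arrays correlated at r = 0.033, 0.028 and 0.016, and those of differently numbered ones at -0.037 to 0.0062. All lay near 0, with the same-numbered ones highest, so whether the numbers pair the samples cannot be told. With the replicate block 1187 genes were higher and 1366 lower. With the range of deposit numbers as a block, 1168 were higher and 1292 lower. Requiring a signal above the median on all 6 arrays left 854 higher and 1010 lower.

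Reversals of single genes were as follows. The mean over probe sets gave 1.74 for Atp2a2, 0.087 for Cox6a1, 0.059 for Hand2 and 0.0041 for Slc2a1. Quantile normalization gave 0.12 for Cox6a1 and 0.0086 for Slc2a1, and the deposit block 0.025 for Ckb and 0.014 for Cox6a1. Probe sets without the suffixes that mark shared sequence gave -0.49 for Smyd1. Without the filter, Krt14 was represented by another probe set, at 0.19. Leaving out 1 array gave -0.11 to 0.037 for Ckb, -0.076 to 0.030 for Cox6a1, -0.095 to 0.043 for Slc2a1 and -0.19 to 0.042 for Pgam1. Of these genes only Krt14 was called. The mean over probe sets also ended the call of Mycn (-0.13) and brought Smyd1 (2.39), Gata5 (1.71) and Ckm (0.82) past the threshold. Srf (0.49, without those suffixes), Spon1 (0.58, signal on all 6 arrays) and Ttr (2.89, with 1 added) lost their calls, and Gja1 and Cav1 were called when the third CP or the third CM array was left out. Other calls held while the value moved by over 1.5 times. The mean over probe sets gave 4.07 for Myl4, 2.77 for Ttn, 1.66 for Des, 2.88 for Rbm24, 2.31 for Spon1, 0.81 for Mdh1, 0.68 for Fermt2, 0.62 for Tgfb1, 1.17 for Tpm2, 2.26 for Bmp7, 2.45 for Ppargc1a and 1.92 for Slc2a4, quantile normalization 0.78 for Tpm1, and probe sets without those suffixes 4.25 for Ttr. The cause was not tested.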

Other observations

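Genes outside the lists, chosen after their values were seen, included the following. Rbm24, a splicing factor of heart and skeletal muscle, had 2384, 2567 and 2088 in cardiomyocytes and 76.2, 82.9 and 147 in cardiopoietic cells, a rise of 4.37 ± 0.32, with all 4 of its probe sets called. Rbm20, which splices titin, had 598, 692 and 502 in cardiomyocytes and 169.6, 89.3 and 59.1 in cardiopoietic cells and rose by 2.42 ± 0.36. Others that rose were the cardiac myosin light chain kinase Mylk3 by 3.58 ± 0.29, the actin assembly factor Fhod3 by 3.22 ± 0.18, the AMP-kinase subunit Prkag2 by 2.58 ± 0.15 and glycogenin (Gyg), the primer of glycogen, by 2.32 ± 0.12. Shox2, a sinus node factor, had 659, 642 and 512 in cardiomyocytes and 124, 85.4 and 61.9 in cardiopoietic cells and rose by 2.58 ± 0.33. The apelin receptor Aplnr, which early cardiac mesoderm carries, rose by 3.71 ± 0.45.

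Further falls, named for their size or chosen after their values were seen, were as follows. The keratins Krt14 and Krt17 were called lower at -3.02 ± 0.40 and -2.35 ± 0.33, and involucrin (Ivl), of the outer skin, had 109.7, 119.5 and 88 in cardiomyocytes and 848, 795 and 848 in cardiopoietic cells and fell by 2.81 ± 0.32. The water channels Aqp3 and Aqp5 were called lower at -2.33 ± 0.27 and -3.10 ± 0.47, and so were the stomach mucosa proteins Gkn1 at -3.48 ± 0.52 and Gkn2 at -2.76 ± 0.50. The peptide hormone gene Cck had 29.3, 24.4 and 19.3 in cardiomyocytes and 457, 543 and 528 in cardiopoietic cells and fell by 3.71 ± 0.41.

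Genes with large falls differed in where the ES cells stood. Platr10, a transcript of pluripotent cells, read 909, 892 and 918 in ES-LIF(+) cells, 1019.5, 1413 and 1198 in ES-LIF(-) cells (48 hours without LIF), 267, 425 and 346 in cardiopoietic cells and 16.5, 8.9 and 14.9 in cardiomyocytes. Xdh, the purine-oxidizing enzyme, read 8.6, 21.8 and 11.8 in ES-LIF(+) cells, 9.5, 8 and 10.9 in ES-LIF(-) cells, 236, 358 and 276 in cardiopoietic cells and 10.2, 7.6 and 5.2 in cardiomyocytes. The first was thus highest in the stem cells and the second stood above the array median in cardiopoietic cells alone. Xdh passed the filter only through its CP arrays, so that pattern came with its selection. The angiotensin receptor Agtr2 showed the second form, with 9.2, 2.5 and 2.9 in ES-LIF(+) cells, 2.8, 5.4 and 1.1 in ES-LIF(-) cells, 191, 329 and 298 in cardiopoietic cells and 31, 6.1 and 39.2 in cardiomyocytes. So did the cytokine Tslp, with 4, 2.1 and 6.1 in ES-LIF(+) cells, 5.4, 3.9 and 3.2 in ES-LIF(-) cells, 311, 392 and 377 in cardiopoietic cells and 53.7, 67.1 and 30.7 in cardiomyocytes. Agtr2 and Tslp also passed the filter only through their CP arrays, and they were chosen after their values were seen.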
